A study of Saccharomyces cerevisiae with 13 samples.

Results

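The hexose transporter genes HXT1 to HXT7 and the hexose kinase genes HXK1, HXK2 and GLK1 of budding yeast were picked by systematic name, 10 genes of the 5694 that appeared in any of the 6 tables of counts per gene. They carry glucose into the cell and phosphorylate it there. The tables hold disome-seq (footprints of 2 stacked ribosomes), monosome-seq (footprints of single ribosomes) and mRNA-seq (randomly fragmented mRNA), each with 2 replicates in each of 2 media. The 6 libraries of the 3-AT group were labelled S288C and came from synthetic complete medium lacking histidine, with 100 mM 3-AT (3-amino-1,2,4-triazole, which inhibits histidine synthesis). The 6 libraries of the rich group were labelled BY4742 (MATα his3Δ1 leu2Δ0 lys2Δ0 uraΔ0) and came from YPD. Both groups grew at 30 °C and had cycloheximide in the lysis buffer. Strain, medium and 3-AT changed together between these groups, so that their parts in any difference cannot be told apart. One further library, also labelled BY4742 and YPD, held footprints of single ribosomes on transcripts bound by 2 ribosomes, and is called the 2-ribosome control here. The comparisons ask how the mRNA, the ribosome footprints and the stacked ribosomes of these 10 genes differed between media and between assays.

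The disome-seq tables held 18790 to 21133 footprints in 3-AT and 34707 to 47391 in the rich medium. The monosome-seq tables held 230583 to 267839 footprints in 3-AT and 606942 to 800994 in the rich medium. The mRNA-seq tables held 544499 to 842485 reads in 3-AT and 2256785 to 2836320 in the rich medium. A single disome footprint was thus worth 47.3 to 53.2 RPM (counts scaled by the table's total) in 3-AT, and small disome differences were not detectable at this depth. Genes that mark the strain did not all follow the labels. LEU2 and LYS2 had no count in any of these 12 libraries, those labelled S288C included. HIS3 had 934 and 578 mRNA-seq counts in the libraries labelled S288C, against 149 and 240 in those labelled BY4742, while URA3 had 22 and 14 against 138 and 181. The 3 genes specific to α cells were detected in all 8 monosome-seq and mRNA-seq libraries, at a summed 620 and 571 RPM of mRNA in 3-AT against 2589 and 2562 RPM in the rich medium. The 2-ribosome control went against its label: the 5 genes specific to a cells had 158 footprints there, the 3 specific to α cells had 1, and LYS2 had 62. The part of these strain differences in the results was not tested.

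Glucose enters yeast by facilitated diffusion through the Hxt carriers and is then phosphorylated, which commits it to glycolysis. HXT1 and HXT3 encode low-affinity carriers of cells with ample glucose, HXT2 and HXT4 carriers of higher affinity that are repressed by ample glucose, HXT6 and HXT7 near-identical high-affinity carriers, and HXT5 a carrier known from slow growth, starvation and stress. HXK2 encodes the main hexokinase of cells on glucose and also takes part in glucose repression, while the hexokinase gene HXK1 and the glucokinase gene GLK1 are known to be repressed by glucose. The sensors Snf3 and Rgt2 relieve repression of HXT genes by Rgt1, and the kinase Snf1 counters repression by Mig1.

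All 10 genes have 1 coding exon in the R64 assembly. HXT1 (YHR094C) lies at chrVIII:290913-292625, HXT4 (YHR092C) at chrVIII:287081-288811 and HXT5 (YHR096C) at chrVIII:294669-296447, all on the reverse strand. HXT3 (YDR345C) at chrIV:1162957-1164660, HXT6 (YDR343C) at chrIV:1159608-1161320 and HXT7 (YDR342C) at chrIV:1154216-1155928 also lie side by side on the reverse strand. HXT2 (YMR011W) is at chrXIII:288079-289704 (forward), HXK1 (YFR053C) at chrVI:253592-255049 (reverse), HXK2 (YGL253W) at chrVII:23935-25395 (forward) and GLK1 (YCL040W) at chrIII:50838-52340 (forward). The coding sequences of HXK1 and HXK2 were identical at 77.7% of aligned bases, and each was identical to GLK1 at 56.0% and 56.1%. Among the 7 transporters the identity ran from 68.8% (HXT2 and HXT5) to 99.8% (HXT6 and HXT7).

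Because reads with several alignments had been discarded, a gene can lose reads from stretches that another coding sequence also holds. Of the 28-nt stretches of HXT6, 3.97% were unique, and the same share held for HXT7, whereas the median over 5689 genes was 100%. The 2 coding sequences of 1713 nt differ at 3 positions near their 3′ ends, counted from the A of the start codon: T1632C, G1666A and T1677C, with the base of HXT6 first. The stretch that holds them is shown here because every count of these 2 genes has to touch it, and the differing bases are in capitals.
HXT6: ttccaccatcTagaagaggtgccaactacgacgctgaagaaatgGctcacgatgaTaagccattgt
HXT7: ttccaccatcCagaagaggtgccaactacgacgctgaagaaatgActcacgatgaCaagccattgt
These are coding positions 1622 to 1687, chrIV:1159634-1159699 for HXT6 and chrIV:1154242-1154307 for HXT7 (R64, reverse strand). HXT3 shared 21.6% of its 28-nt stretches with HXT6 and HXT7, which left 75.4% unique at 28 nt and 87.5% at the 58 nt of a disome footprint. The unique share at 28 nt was 89.4% for HXT1, 91.1% for HXT4, 93.9% for HXT5, 94.6% for GLK1, 99.2% for HXT2 and 100% for HXK1 and HXK2. The levels of HXT3, HXT6 and HXT7 are therefore understated, and those of HXT6 and HXT7 are uncertain.

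Levels between genes were compared as RPKM (RPM per kb of coding sequence). In 3-AT, the mRNA level was highest for GLK1 (453 ± 2.82 RPKM, SD, n = 2), followed by HXT3 (402 ± 11.2), HXK1 (352 ± 14.8), HXK2 (137 ± 9.41), HXT1 (79.7 ± 1.98), HXT5 (71.6 ± 0.58), HXT4 (32.7 ± 4.21) and HXT2 (18.9 ± 1.16). In the rich medium the order was HXK2 (1212 ± 26.8 RPKM, SD, n = 2), HXT3 (334 ± 31.2), GLK1 (258 ± 6.98), HXT2 (200 ± 27.1), HXK1 (159 ± 4.32), HXT1 (70.6 ± 10.2) and HXT4 (30.5 ± 4.72). Neighbours in both orders did not overlap between replicates. HXT6 and HXT7 were at 1.42 ± 1.03 and 2.30 ± 1.29 RPKM in 3-AT, where they overlapped, and at 0.70 ± 0.11 and 3.51 ± 0.57 RPKM in the rich medium (SD, n = 2), and HXT5 was at 1.62 ± 0.88 RPKM there. Scaled to their few unique stretches, HXT6 and HXT7 averaged 36.3 and 58.8 RPKM in 3-AT and 17.8 and 89.7 RPKM in the rich medium, from 3 to 31 counts over both replicates.

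**Figure D1:**
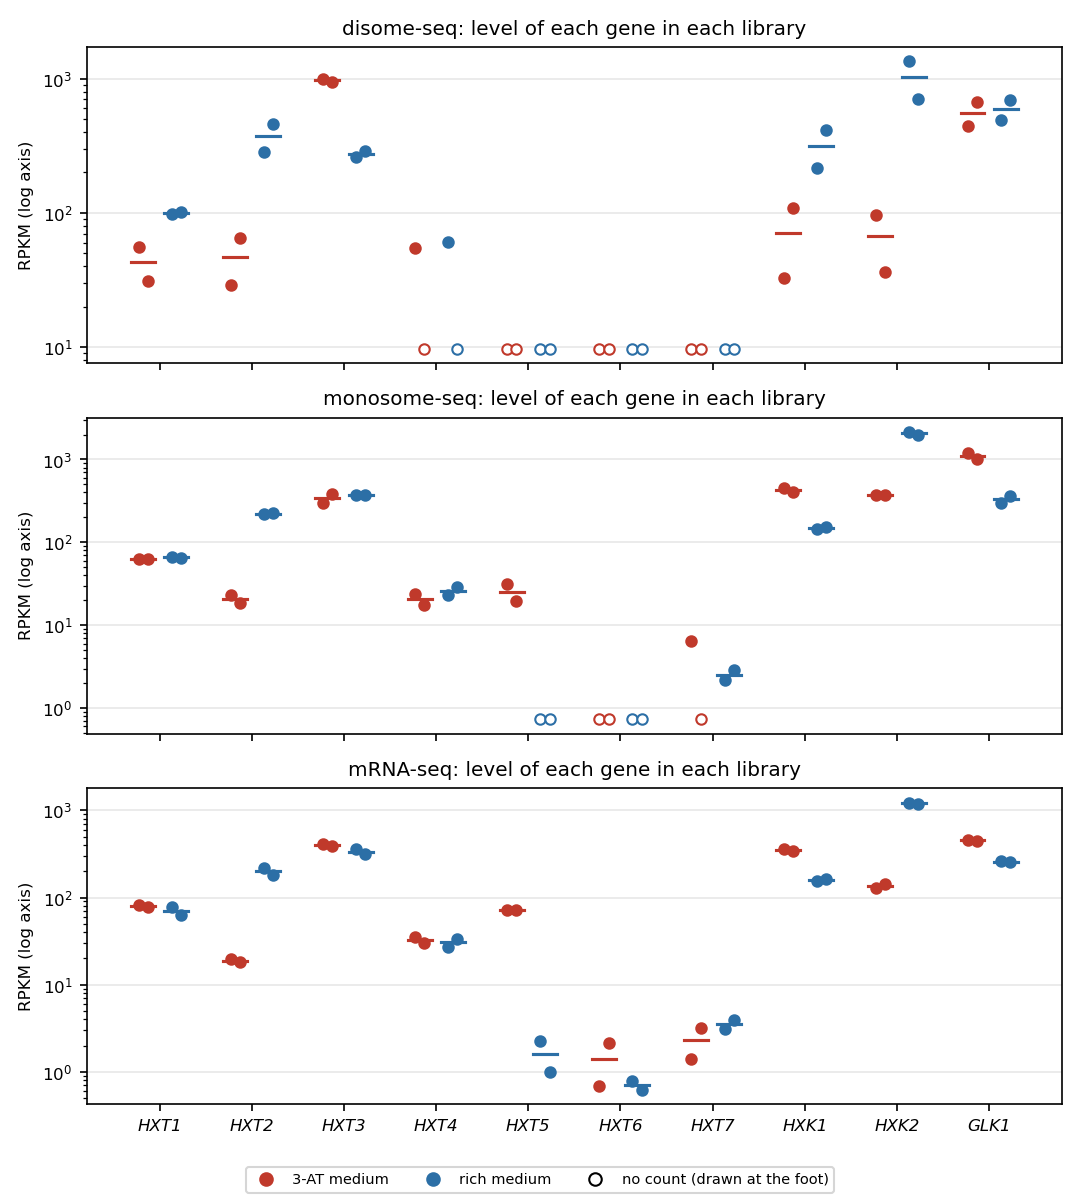
Level of each gene (RPKM, log axis) in each disome-seq, monosome-seq and mRNA-seq library, 3-AT left of rich medium, with points for the 2 replicates, lines for their means and open points for libraries with no count. HXK2 and HXT2 lie lower in 3-AT in all 3 assays, while HXT5 mRNA is at 72.1 and 71.2 RPKM in 3-AT against 2.24 and 0.99 RPKM in the rich medium.

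In mRNA, 3-AT cells had far less HXK2 and HXT2 and far more HXT5 than cells in the rich medium, with smaller rises of HXK1 and GLK1. HXK2 had 160 and 114 counts (190 and 209 RPM) in 3-AT, against 4057 and 4942 counts (1798 and 1742 RPM) in the rich medium. The groups lay far apart, and HXK2 fell by 3.48 ± 0.09 on the log2 scale (SE, edgeR, adjusted p = 4.95e-75). HXT2 had 32.0 and 29.4 RPM in 3-AT, against 357 and 294 RPM in the rich medium, and fell by 3.70 ± 0.16 on the log2 scale (SE, edgeR, adjusted p = 8.86e-48). HXT5 had 108 and 69 counts in 3-AT, against 9 and 5 counts in libraries several times larger. It rose by 5.18 ± 0.27 on the log2 scale (SE, edgeR, adjusted p = 4.81e-39), a larger value than those of 99.7% of the 5290 genes tested. HXT5 passed the filter on low counts only through 3-AT, which favours a higher call. The kinase genes that glucose represses moved the other way from HXK2. HXK1 had 528 and 498 RPM in 3-AT against 227 and 236 RPM in the rich medium, and GLK1 had 684 and 678 RPM against 395 and 380 RPM. The rise was 0.83 ± 0.09 on the log2 scale for HXK1 and 0.49 ± 0.08 for GLK1 (SE, edgeR, adjusted p = 2.19e-16 and 7.70e-09).

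The low-affinity carriers HXT1 and HXT3 and the carrier HXT4 did not pass the test in mRNA. HXT3 had 699 and 672 RPM in 3-AT against 606 and 531 RPM in the rich medium, with a log2 fold change of -0.04 ± 0.08 (SE, edgeR, adjusted p = 0.613). HXT1 and HXT4 had log2 fold changes of -0.13 ± 0.13 and -0.21 ± 0.19 (SE, edgeR, adjusted p = 0.370 and 0.313). With library totals alone in place of TMM factors, the 3 values turned to 0.28, 0.19 and 0.11 for HXT3, HXT1 and HXT4, and HXT3 then passed the test. In total 5 of the 8 genes tested passed, 3 higher and 2 lower, where 75.4% of all genes tested did (37.7% higher and 37.7% lower), so the count of 5 is near the background. The median of the 8 was -0.09 and that of all genes 0.01. HXT6 and HXT7 were too low to be tested, and their summed counts gave -0.64 ± 0.54 (SE, edgeR, adjusted p = 0.275). Library totals alone moved the median of all genes to 0.33 in mRNA, to 0.32 in monosome-seq (0.03 with TMM) and to 0.47 in disome-seq (-0.14 with TMM), and the genes called in mRNA then split into 2557 higher and 1457 lower, against 1994 and 1994 with TMM.

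Ratios between genes of 1 library do not depend on any scaling of libraries. The level of HXK1 mRNA over that of HXK2 was 2.79 and 2.38 in 3-AT, against 0.127 and 0.136 in the rich medium. For GLK1 over HXK2 the ratio was 3.50 and 3.15 in 3-AT against 0.214 and 0.212 in the rich medium, and for HXT3 over HXT2 it was 20.8 and 21.8 against 1.62 and 1.72. HXK2 thus stood below both other kinases in 3-AT and above both in the rich medium, in each replicate. HXK2 made up 14.5% ± 1.13 of the summed RPKM of the 3 kinases in 3-AT against 74.4% ± 0.30 in the rich medium (SD, n = 2). HXT3 made up 66.1% ± 0.014 of HXT1 to HXT7 in 3-AT against 52.1% ± 0.35 in the rich medium, and HXT2 made up 3.10% ± 0.10 against 31.2% ± 1.10 (SD, n = 2). The summed mRNA of the 7 transporters overlapped between media, at 1064 and 1023 RPM in 3-AT against 1154 and 1002 RPM in the rich medium, whereas that of the 3 kinases did not, at 1402 and 1385 RPM against 2420 and 2359 RPM.

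**Figure D2:**
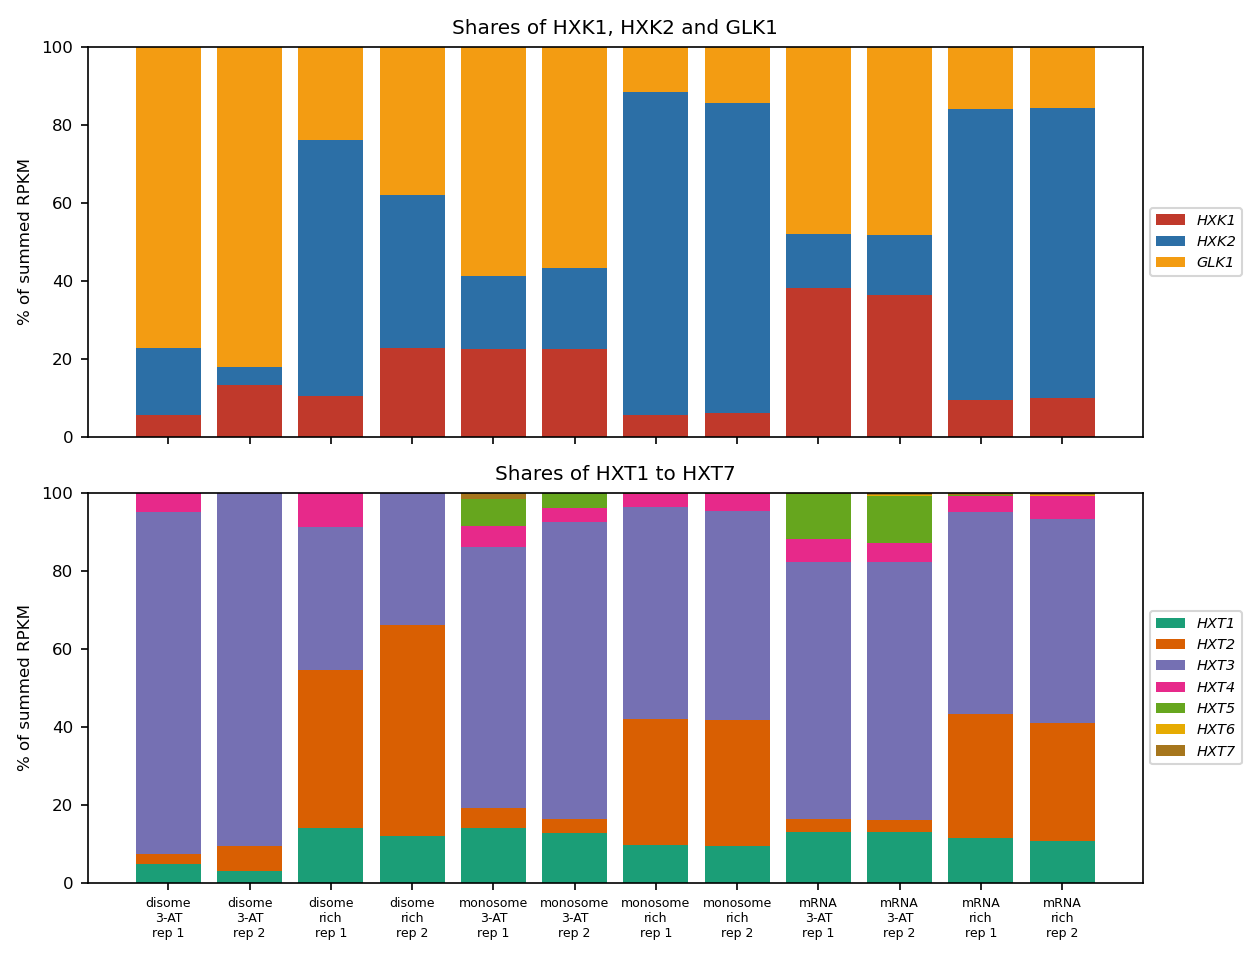
Share of each gene in the summed RPKM of the 3 kinases (top) and of HXT1 to HXT7 (bottom), in percent, 1 bar per library, 3-AT left of rich medium within each assay. The HXK2 segment is 14.5% on average in 3-AT and 74.4% in the rich medium in mRNA-seq, and HXT5 shows only in 3-AT monosome-seq and mRNA-seq at this scale.

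In monosome footprints HXK2 and HXT2 were lower in 3-AT, and HXT5, HXK1 and GLK1 were higher. HXK2 had 549 and 538 RPM of monosome footprints in 3-AT, against 3140 and 2916 RPM in the rich medium. It fell by 2.77 ± 0.12 on the log2 scale, and HXT2, with 10 and 7 footprints in 3-AT against 288 and 221 in the rich medium, fell by 3.68 ± 0.24 (SE, edgeR, adjusted p = 1.71e-19 and 9.60e-15). GLK1 had 480 and 352 footprints (1792 and 1527 RPM) in 3-AT, against 364 and 330 footprints (454 and 544 RPM) in the rich medium. Per kb of coding sequence GLK1 thus had the most monosome footprints of the 10 genes in 3-AT, and HXK2 in the rich medium. GLK1 rose by 1.46 ± 0.12 and HXK1 by 1.25 ± 0.14 on the log2 scale (SE, edgeR, adjusted p = 3.04e-12 and 2.38e-09), where HXK1 had 668 and 590 RPM in 3-AT against 211 and 224 RPM in the rich medium. HXT5 had 15 and 8 footprints in 3-AT and none in either rich library. Over both replicates this is 46.1 RPM in 3-AT against a limit of 2.13 RPM (3 counts over the group), at least 21.7-fold higher (edgeR, adjusted p = 8.69e-08). HXT5 passed the filter on low counts only through 3-AT here too. Without 3-AT replicate 1 it fell below this filter and the call was lost.

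HXT3 footprints differed little between media, at 512 and 646 RPM in 3-AT against 634 and 634 RPM in the rich medium. The 3-AT replicates lay on either side of the rich ones. edgeR gave a log2 fold change of -0.43 ± 0.13 (SE, adjusted p = 0.00367), but the call was lost with library totals alone (-0.14, adjusted p = 0.333), with DESeq2 (-0.46, adjusted p = 0.0740) and without rich replicate 1 or 2 (edgeR, adjusted p = 0.0666 and 0.0558). HXT1 had 108 and 108 RPM in 3-AT against 115 and 112 RPM in the rich medium, and HXT4 had 11 and 7 footprints against 32 and 30. Neither passed the test, with log2 fold changes of -0.36 ± 0.23 and -0.57 ± 0.39 (SE, edgeR, adjusted p = 0.177 and 0.193). Of the 8 genes tested 6 passed, 3 in each direction, where 65.6% of all 4169 genes tested did, 33.8% higher and 31.7% lower. With library totals alone, the genes called split into 1689 higher and 1027 lower, against 1411 and 1322 with TMM. HXT6 had no monosome footprint in any library and HXT7 had 3, 0, 3 and 3, which is too few to compare.

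Disome footprints were few. HXT3 had 36 and 30 disome footprints (1704 and 1597 RPM) in 3-AT, the most of the 10 genes also per kb of coding sequence, against 21 and 17 (443 and 490 RPM) in the rich medium. HXK2 had 3 and 1 in 3-AT against 93 and 36 in the rich medium, where it had the most in replicate 1 and as many as GLK1, 36, in replicate 2. The order of HXT3 and HXK2 was thus turned round between media. HXK2 fell by 4.50 ± 0.68 and HXT2, with 1 and 2 footprints in 3-AT against 22 and 26 in the rich medium, fell by 3.50 ± 0.70 on the log2 scale (SE, edgeR, adjusted p = 7.37e-06 and 0.00014). Both genes passed the filter on low counts only through the rich medium, which favours a lower call. Of the 624 genes tested, 14.4% fell at least as far as HXK2 and 21.6% at least as far as HXT2. HXT3 rose by 1.20 ± 0.45 (SE, edgeR, adjusted p = 0.0186), a call that was lost with DESeq2 (1.20, adjusted p = 0.0758), without a filter on low counts (0.98, edgeR, adjusted p = 0.156) and without rich replicate 1 (1.07, adjusted p = 0.100) or 2 (0.87, adjusted p = 0.183). HXT2 fell below the filter on low counts without rich replicate 2, so that HXK2 alone passed then.

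The other kinases did not follow their monosome footprints. GLK1 had 14 and 19 disome footprints in 3-AT against 35 and 36 in the rich medium, or 662 and 1011 RPM against 739 and 1037 RPM. The groups overlapped, with a log2 fold change of -0.68 ± 0.47 (SE, edgeR, adjusted p = 0.182). HXK1 had 1 and 3 in 3-AT against 15 and 21 in the rich medium, which the filter on low counts left out of the test. Without that filter, HXK1 had a log2 fold change of -2.94 ± 0.77 (SE, edgeR, adjusted p = 0.00149). In all, 4 of the 10 genes could be tested and 3 of them passed, 1 higher and 2 lower, where 80.1% of the 624 genes tested did, 37.0% higher and 43.1% lower. HXT1 had 2 and 1 disome footprints in 3-AT against 8 and 6 in the rich medium, and HXT4 had 2 and 0 against 5 and 0. HXT5, HXT6 and HXT7 had none, which allows up to 75.1 RPM in 3-AT and 36.5 RPM in the rich medium over both replicates.

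**Figure D3:**
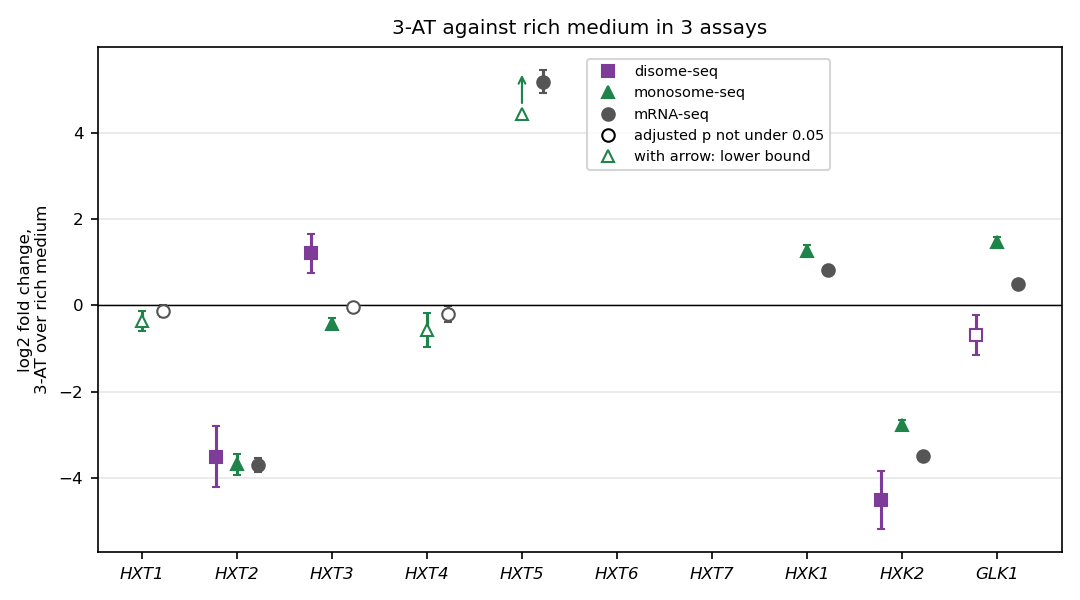
Log2 fold change of 3-AT over rich medium for each gene in disome-seq (squares), monosome-seq (triangles) and mRNA-seq (circles), with SE bars, filled where the adjusted p was under 0.05 and with an arrow for the lower bound of HXT5. HXT2 and HXK2 lie below -2.7 in all 3 assays, HXT3 lies at 1.20 in disome-seq and -0.43 in monosome-seq, and the HXT1, HXT3 and HXT4 circles turn above 0 with library totals alone.

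The ratio of monosome-seq to mRNA-seq was taken within each medium to set the ribosome load of each mRNA against that of other mRNAs. HXK2 and GLK1 had the highest ratios of these genes in both media, and for both the ratio was higher in 3-AT. In 3-AT, HXK2, GLK1 and HXK1 had log2 ratios of 1.91 ± 0.13, 1.75 ± 0.11 and 0.75 ± 0.12 (SE, edgeR, adjusted p = 1.50e-09, 3.39e-10 and 4.99e-05). The stress carrier HXT5 had the lowest, at -1.01 ± 0.29 (SE, edgeR, adjusted p = 0.00831), a call that was lost with DESeq2 (adjusted p = 0.139) and without monosome replicate 2 (-0.64, edgeR, adjusted p = 0.143). HXT1 to HXT4 did not pass in 3-AT, with values from -0.22 to 0.59. In total 4 of 8 genes passed in 3-AT, 3 higher and 1 lower, where 51.4% of all genes tested did, 25.3% higher and 26.2% lower.

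In the rich medium 6 of 7 genes passed, all 6 higher in monosome-seq, where 51.7% of all genes tested passed, 25.9% higher and 25.8% lower. With library totals alone, which moved the median of all genes from -0.06 to -0.64, 2 of the 7 passed, HXK2 and GLK1, while HXT2 and HXT3 stayed above 0 and HXT1, HXK1 and HXT4 turned below 0. HXK2 and GLK1 had log2 ratios of 1.36 ± 0.08 and 0.94 ± 0.09, and HXT3 and HXT2 had 0.74 ± 0.09 and 0.74 ± 0.10 (SE, edgeR, adjusted p = 1.18e-69, 8.67e-23, 1.77e-16 and 8.70e-13). HXT1 and HXK1 had 0.50 ± 0.15 and 0.48 ± 0.11 (SE, edgeR, adjusted p = 0.00191 and 8.71e-05), and HXT1 was lost with DESeq2 (adjusted p = 0.0558) and without mRNA replicate 2 (edgeR, adjusted p = 0.0628). The split of all genes called was 427 higher and 3135 lower with library totals alone, against 1323 and 1314 with TMM, and in 3-AT it was 698 and 2184 against 1186 and 1228.

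The change of this ratio between media was tested as an interaction. GLK1 rose by 0.93 ± 0.14 and HXK2 by 0.67 ± 0.17 on the log2 scale (SE, edgeR, adjusted p = 2.21e-09 and 0.000586), and HXT3 fell by 0.43 ± 0.15 (SE, edgeR, adjusted p = 0.0209). These were 3 of 8 genes tested, where 28.9% of all genes passed, 16.9% higher and 12.1% lower. HXK1 had 0.38 ± 0.17 (SE, edgeR, adjusted p = 0.0723), and passed without monosome 3-AT replicate 2 (0.53, adjusted p = 0.0145). The call of HXT3 was lost without monosome 3-AT replicate 1 (-0.33, edgeR, adjusted p = 0.138) and without monosome rich replicate 1 (-0.42, adjusted p = 0.0650), and that of HXK2 without mRNA 3-AT replicate 1 (0.50, adjusted p = 0.0538). HXT5 had no monosome footprint in the rich medium, so its fitted change is no bound and is not given.

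Disome-seq was set against monosome-seq in each medium to find genes with more or fewer stacked ribosomes than their single footprints. HXT3 stood above its monosome footprints in 3-AT and the 3 kinases below theirs, whereas HXK1 and GLK1 stood above in the rich medium. In 3-AT, HXT3 had a log2 ratio of 1.37 ± 0.28 (SE, edgeR, adjusted p = 0.000641), from 36 and 30 disome against 137 and 149 monosome footprints. HXK1 had -2.79 ± 0.58, HXK2 -2.58 ± 0.59 and GLK1 -1.16 ± 0.31 (SE, edgeR, adjusted p = 0.000852, 0.00192 and 0.00766). HXK1 and HXK2 each had 4 disome footprints over both replicates. They passed the filter on low counts only through monosome-seq, which favours a lower call. HXT1, with 3 disome footprints over both replicates, had -0.67 ± 0.86 (SE, edgeR, adjusted p = 0.589). So 4 of the 5 genes tested passed, 1 higher and 3 lower, where 31.6% of all genes tested did, 11.4% higher and 20.2% lower. The median of all genes was -0.39. Of all genes tested, 32.8% lay no higher than GLK1, 13.9% no higher than HXK2, 12.4% no higher than HXK1 and 88.9% no higher than HXT3. The call of HXT3 was lost without monosome 3-AT replicate 1 (0.94, edgeR, adjusted p = 0.0994) and that of GLK1 without disome 3-AT replicate 1 (-1.01, adjusted p = 0.0875). The unique share of HXT3 at the lengths of the 2 assays, 87.5% and 75.4%, differs in the same direction as its ratio, and its part in the ratio was not tested.

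In the rich medium, HXK1 and GLK1 had log2 ratios of 1.28 ± 0.31 and 1.07 ± 0.22, HXT2 had 0.96 ± 0.26 and HXK2 had -0.71 ± 0.22 (SE, edgeR, adjusted p = 0.000589, 2.08e-05, 0.00238 and 0.00843). HXT3, HXT1 and HXT4 did not pass, with -0.19 ± 0.25, 0.85 ± 0.49 and 0.73 ± 0.80 (SE, edgeR, adjusted p = 0.653, 0.230 and 0.569). The median of all genes was -0.37, and 38.1% of all genes tested lay no higher than HXK2. For HXK1, GLK1 and HXT2 this share was 92.1%, 89.2% and 87.4%. In all, 4 of 7 genes passed, 3 higher and 1 lower, where 18.5% of all genes tested did, 9.03% higher and 9.42% lower, but the calls rested on single libraries. Without disome rich replicate 2 or without monosome rich replicate 1 none of the genes tested passed (for these 4 genes edgeR, adjusted p from 0.0644 to 0.281 and from 0.0666 to 0.259), and without monosome rich replicate 2 only HXK1 did. HXK2 was also lost with DESeq2 (-0.67, adjusted p = 0.186). Library totals alone split the genes called into 223 higher and 511 lower, against 279 and 291 with TMM.

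The ratio itself changed between media in 4 of the 7 genes tested, 1 higher and 3 lower, where 17.6% of all genes passed, 2.72% higher and 14.8% lower. HXK1 fell by 4.50 ± 0.65 and GLK1 by 2.65 ± 0.40 on the log2 scale (SE, edgeR, adjusted p = 5.91e-10 and 4.17e-09), below the median of all genes, -0.77. For HXK1 the counts behind this are 4 disome and 315 monosome footprints in 3-AT against 36 and 305 in the rich medium. Its disome counts alone did not pass the filter on low counts between media. Here it entered the test through its other groups, and its 3-AT value rests on 4 disome footprints. HXK1 and GLK1 both had a higher RPM of monosome footprints in 3-AT, while the disome RPM was lower (HXK1) or overlapped (GLK1). HXT3 rose by 1.14 ± 0.39 and HXK2 fell by 2.29 ± 0.70 (SE, edgeR, adjusted p = 0.0266 and 0.00943). These 2 calls did not hold throughout. HXK2 was lost with DESeq2 (-1.83, adjusted p = 0.119), with library totals alone (-1.46, edgeR, adjusted p = 0.182), with DESeq2 size factors (-1.84, adjusted p = 0.0662) and without disome 3-AT replicate 2, disome rich replicate 1, monosome 3-AT replicate 2 or monosome rich replicate 2 (-1.85 to -1.59). HXT3 was lost without a filter on low counts (1.08, edgeR, adjusted p = 0.0804) and without each disome library or replicate 1 of either monosome group (0.92 to 1.13). HXT1, HXT2 and HXT4 did not pass, and library totals alone split the genes called into 191 higher and 182 lower, against 78 and 426 with TMM.

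**Figure D4:**
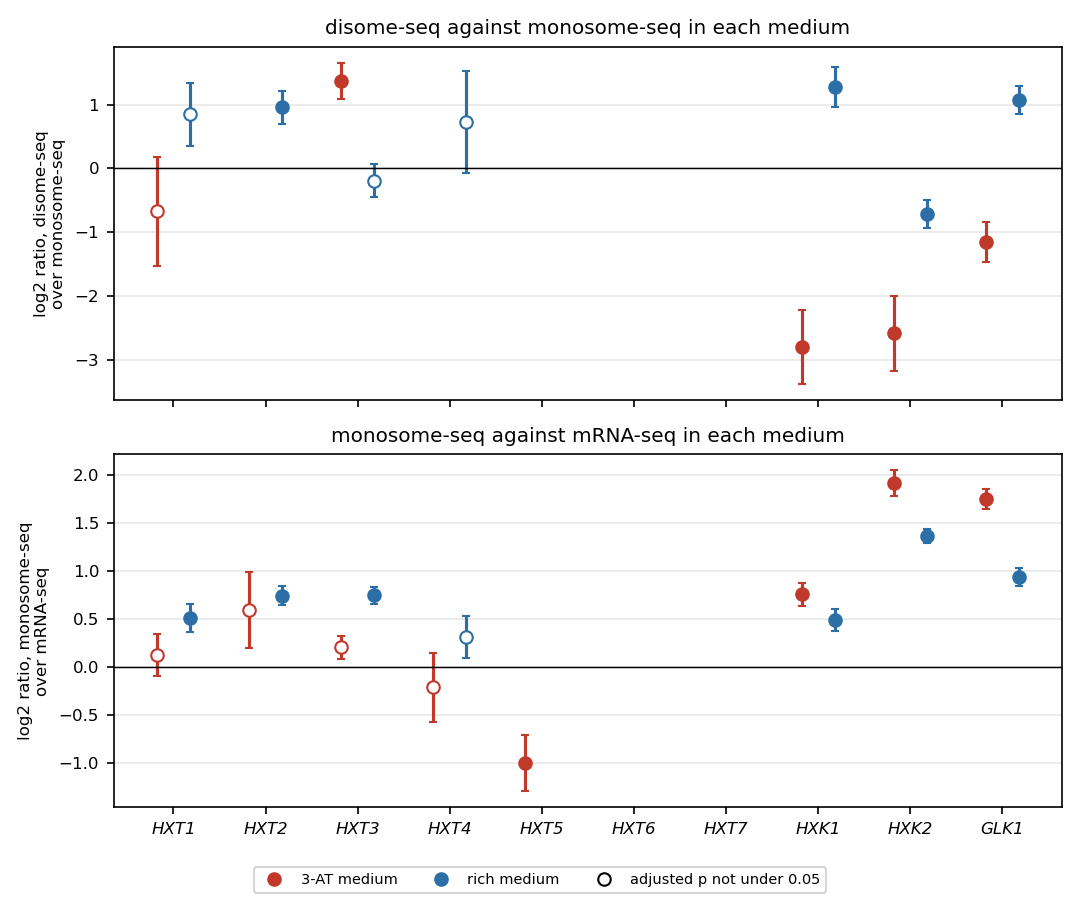
Log2 ratio of disome-seq to monosome-seq (top) and of monosome-seq to mRNA-seq (bottom) for each gene, 3-AT left of rich medium, with SE bars, filled where the adjusted p was under 0.05. HXK1 lies at -2.79 in 3-AT and 1.28 in the rich medium in the top panel, and in the bottom panel the rich values of HXT1, HXT4 and HXK1 turn below 0 with library totals alone.

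A fit gives a gene 1 spread for both assays, and disome counts vary more, so that errors across assays can be too small. The methods call the replicates biological without naming the cultures, so p-values measure the spread between these samples.

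The other genes of the pathway were followed from lists. Of 11 further transporter family genes (HXT8 to HXT17 and the galactose carrier gene GAL2) only HXT8 had enough mRNA counts to be tested, with a log2 fold change of 0.08 ± 0.58 (SE, edgeR, adjusted p = 0.905). Of the 21 glucose sensing and repression genes tested in mRNA, 6 were higher in 3-AT, 7 were lower and 8 did not pass, where 75.4% of all genes tested passed, and the list had a median of -0.11 against 0.01 for all genes. MTH1, which encodes a corepressor of Rgt1, had 99 and 42 mRNA counts in 3-AT against 35 and 63 in the rich medium and rose by 2.07 ± 0.20. The repressor gene MIG3 rose by 1.87 ± 0.22 and the Snf1 subunit gene SIP2 by 1.69 ± 0.17, while YCK1 (a casein kinase of the sensor pathway) fell by 1.31 ± 0.14 and GRR1 (an F-box protein that targets Mth1) by 1.08 ± 0.17 (SE, edgeR, adjusted p = 2.49e-13, 7.65e-18, 7.38e-16 and 1.25e-08). In monosome-seq, MTH1 had 25 and 21 footprints in 3-AT against 3 and 5 in the rich medium. There MTH1, MIG3 and SIP2 were higher, each passing the filter on low counts only through 3-AT, and GRR1 was lower. YCK1 did not pass (-0.49 ± 0.26, SE, edgeR, adjusted p = 0.103). MIG1, not called in mRNA (-0.15 ± 0.16), rose by 1.91 ± 0.18 (SE, edgeR, adjusted p = 3.43e-11). Of the 16 genes of this list tested, 6 were higher and 4 lower, near the 33.8% and 31.7% of all genes tested.

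In a list of further genes that glucose represses, 9 of 10 tested in mRNA were higher in 3-AT. The median was 1.72, against 0.01 for all genes tested, of which 37.7% were higher. PCK1, MLS1, JEN1, CAT8, CYB2 and POX1 passed the filter on low counts only through 3-AT, which favours a higher call. The genes of the list too low to be tested had no mRNA count in 3-AT and 2 to 5 in each rich library. The count of 9 of 10 was thus partly set by the filter. The lactate carrier gene JEN1, with 51 and 40 mRNA counts in 3-AT against 12 and 8 in the rich medium, rose by 3.72 ± 0.31, and PCK1 of gluconeogenesis rose by 2.77 ± 0.45 (SE, edgeR, adjusted p = 1.37e-22 and 2.54e-08). All of these genes had few counts, and the fatty acid oxidase gene POX1 had 14 and 8 in 3-AT against none in the rich medium. The exception in the list was the invertase gene SUC2, with 32 and 19 counts in 3-AT against 226 and 270 in the rich medium, which fell by 1.72 ± 0.19 (SE, edgeR, adjusted p = 3.02e-15). In monosome-seq only ICL1 (higher) and SUC2 (lower) of this list had enough footprints to be tested, and ICL1 had enough only through 3-AT. Outside the list, the mRNA of HXT2, also repressed by ample glucose, fell, that of HXT4 did not pass, and that of HXK1 and GLK1 rose. Of the kinase-like genes, EMI2 fell by 0.39 ± 0.13 in mRNA (SE, edgeR, adjusted p = 0.00429) and did not pass in monosome-seq (-0.33 ± 0.19, adjusted p = 0.126). YLR446W did not pass in mRNA (0.13 ± 0.43, SE, edgeR, adjusted p = 0.799). It rose by 2.12 ± 0.53 in monosome-seq (SE, edgeR, adjusted p = 0.000839) from 7 and 18 footprints in 3-AT against 4 and 9 in the rich medium. There it passed the filter on low counts only through 3-AT.

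The 2-ribosome control is 1 library of 401686 footprints of 28 to 29 nt and allows no test. Intervals here cover counting error only. HXK1 had 1039 control footprints, or 2587 RPM (95% Wilson interval 2434 to 2749), against 211 and 224 RPM in rich monosome-seq. The ratio was 11.9 (95% exact interval 10.5 to 13.6), above that of 99.2% of the 2469 genes with 10 or more counts in both. HXK1 had the most control footprints of the 10 genes, and the fewest monosome footprints of the 3 kinases in the rich medium, which also raises its ratio. GLK1 had 508 control footprints, 2.57 times (2.28 to 2.88) its RPM in monosome-seq, and HXK2 had 734, 0.60 times (0.55 to 0.65). Among the transporters, HXT4 had 55 control footprints, 3.11 times (2.12 to 4.54) its RPM in monosome-seq, and HXT3 had 16, 0.0628 times (0.0357 to 0.103). HXT7 had 23 control against 6 monosome footprints, 13.4 times (5.32 to 40.3), and HXT6 had 9 against none. These 2 genes had too few monosome footprints to be ranked. HXT2 had 2 footprints, HXT1 had 1 and HXT5 had 0, which allows up to 7.47 RPM. The 7 transporters summed to 106 footprints and the 3 kinases to 2281. Past 2-fold were 4 of the 5 genes ranked, 3 higher and 1 lower, where 47.5% of all genes ranked were past it, 18.1% higher and 29.4% lower. The strain markers given above differ between the libraries compared, the length classes differ too, and their part in these ratios was not tested.

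The control footprints lay at 159 positions of HXK1, 153 of HXK2 and 134 of GLK1. These include 21 footprints on HXK1, 1 on HXK2 and 3 on GLK1 with the A-site past the stop codon. GLK1 also had 1 before the start codon. All of them are counted in the shares below. The highest A-site (the ribosome site that takes the next tRNA) was a CCA codon, codon 449, on HXK1, with 90 footprints (8.66% of the gene, 95% Wilson interval 7.10% to 10.5%). On HXK2 it was an AAG codon, codon 452, with 73 footprints (9.95%, 7.98% to 12.3%), 2 codons past the codon that aligns with codon 449 of HXK1. On GLK1 it was a TAC codon, codon 38, with 67 footprints (13.2%, 10.5% to 16.4%). The median share at the highest position over the 800 genes with 50 or more footprints was 13.1%, so these peaks were no larger than usual. The 28-nt stretches that carry these peaks are shown with the A-site codon in capitals, since they hold the highest single A-site position of each kinase.
HXK1 footprint: gacgcaagcaaagatCCAattacgattg
HXK2 footprint: gacgactacccaatcAAGattgttcctg
GLK1 footprint: gacgaattaactgctTACttcatcgaac
They lie at chrVI:253693-253720 (reverse), chrVII:25273-25300 (forward) and chrIII:50934-50961 (forward) of R64. The first 50 codons held 1.35% of the footprints on HXK1 (95% Wilson interval 0.80% to 2.25%), 9.40% on HXK2 (7.50% to 11.7%) and 20.9% on GLK1 (17.6% to 24.6%), against 9.98% to 10.3% for an even spread. The median share over the 800 genes with 50 or more footprints was 7.91%. The start of HXK1 thus held far fewer footprints than an even spread gives and the start of GLK1 more. On GLK1, 67 of the 106 footprints in the first 50 codons were at the single peak at codon 38. On HXT4 the share in the first 50 codons was 14.5% (7.56% to 26.2%), an interval that holds the 8.67% of an even spread, and 69.1% (56.0% to 79.7%) lay in the first 100 codons, where an even spread gives 17.3%. All 9 control footprints of HXT6 and all 23 of HXT7 had their A-sites in codons 548 to 560, within the stretch that tells these genes apart. For 4 of the 9 and 20 of the 23, the 28-nt stretch placed around the A-site was itself unique.

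**Figure D5:**
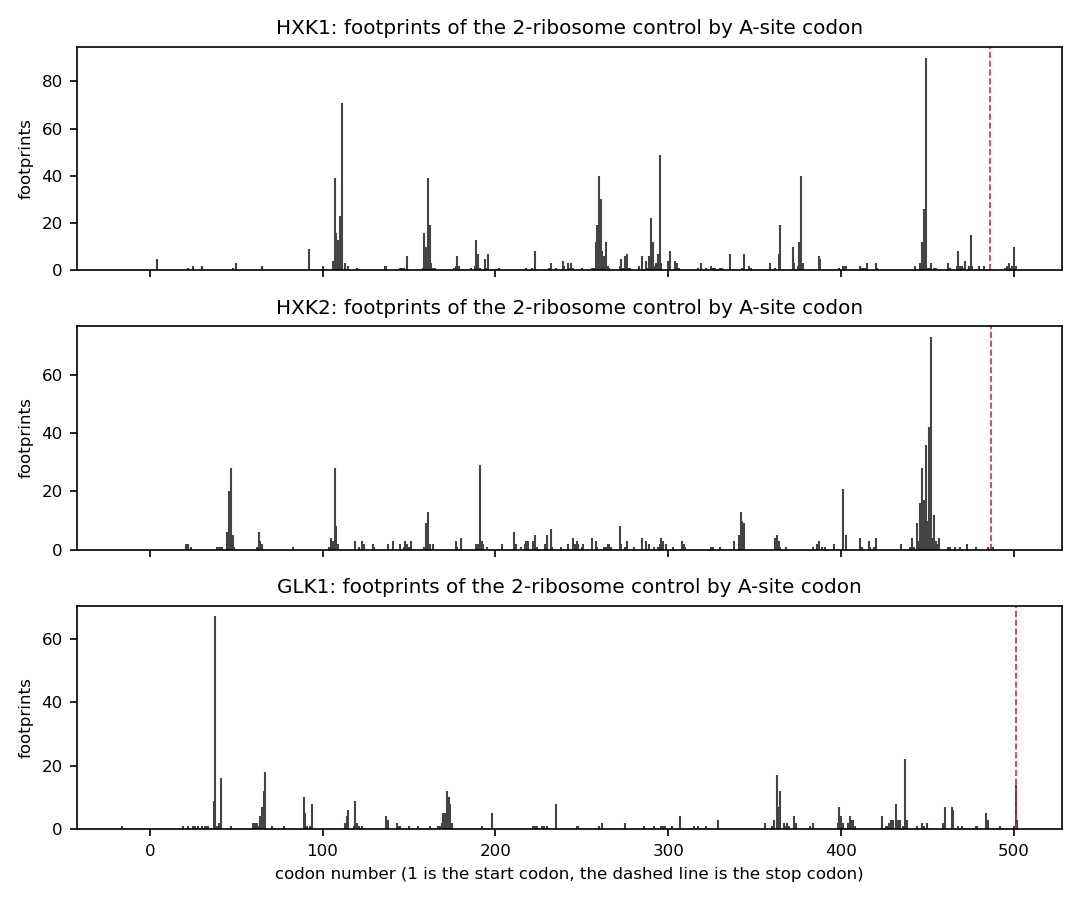
Number of 2-ribosome control footprints (vertical axis) by A-site codon number (horizontal axis) on HXK1, HXK2 and GLK1, with a dashed line at the stop codon. The highest bars are the 90 footprints at codon 449 of HXK1, the 73 at codon 452 of HXK2 and the 67 at codon 38 of GLK1. Past the dashed line lie 21 footprints on HXK1, 1 on HXK2 and 3 on GLK1.

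Histidine codons were counted because 3-AT inhibits histidine synthesis. HXK1 has 9 of them, HXK2 5 and GLK1 15, while HXT3 has 3, HXT2 and HXT5 2 each, HXT4 5 and HXT1, HXT6 and HXT7 6 each. Per 1000 codons this is 30.0 for GLK1 and 18.6 for HXK1, 10.5 or less for the other 8 genes, and a median of 20.5 over 5689 genes. HXT1 (codons 103 and 104) and HXT4 (codons 109 and 110) carry adjacent pairs. In 3-AT the disome to monosome ratio was highest for HXT3, with 3 histidine codons, while GLK1, with 15, was between HXT1 and HXK2. Only 5 genes had this ratio, and a link between it and histidine codons was not tested. The per-gene tables hold no positions for disome-seq, so footprints at these codons were not analysed here.

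The 500 nt before each start codon were searched on both strands for 4 motifs. The stress response element AGGGG, bound by Msn2 and Msn4, occurred 3 times each before HXK1 and GLK1, 2 times each before HXT5 and HXT7, once before HXT1 and not before HXT2, HXT3, HXT4, HXT6 or HXK2. Of all 5689 genes, 34.3% had at least 1 match in this window, 8.37% had 2 or more and 1.90% had 3 or more. Matches are shown in capitals for the 3 genes whose mRNA was higher in 3-AT, on the gene's own strand, with positions counted back from the start codon.
HXT5 AGGGG at -472: tgtgcacattAGGGGacagtaagta
HXT5 AGGGG at -304: aattagttttAGGGGcacggagtaa
HXK1 AGGGG at -337: tttttttttaAGGGGttgatgaaaa
GLK1 AGGGG at -174: aacccctttcAGGGGgccccctatc
These windows are chrVIII:296905-296929, chrVIII:296737-296761, chrVI:255372-255396 and chrIII:50654-50678 of R64. The other matches of HXK1 and GLK1 lie on the opposite strand, those of GLK1 at -182 and -167. The Rgt1 motif CGGANNA occurred 5 times before HXT3, 4 times before HXT1, 2 times each before HXT2 and HXT4, once before HXT5, HXT6 and HXK2 and not before HXT7, HXK1 or GLK1, and 42.1% of all genes had at least 1. The GC box of the repressor Mig1 was searched as CTGGGG or CCGGGG, and with G as its first letter as GTGGGG or GCGGGG. None of these forms can share its run of G with AGGGG on the same strand. The GC box occurred 4 times before HXT4, 3 times before HXT6, 2 times each before HXT1, HXT2, HXT3 and HXK1, once before HXT7 and GLK1 and not before HXT5 or HXK2, and 22.4% of all genes had at least 1. The Gcn4 core TGACTC occurred once, before HXT1, and 12.9% of all genes had it. These matches are letters in a window, and no binding was measured.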

How the data were processed

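Per the methods, the authors split off 3-nt UMIs, trimmed adaptors (cutadapt 1.16), removed rRNA reads (Bowtie 1.2.2), aligned the rest to coding sequences of SGD R64-1-1 (TopHat2 2.1.1) and discarded multiple alignments and mapping qualities under 30. The deposited values are counts of reads per gene and replicate, and for the control per A-site position, without normalization. Whether reads sharing a UMI had been collapsed in them is not stated. The tables hold reads of 55 to 65 nt (disome-seq), 20 to 30 nt (monosome-seq) and 28 to 29 nt (mRNA-seq, control), so their totals are not library depths. Missing genes were set to 0.

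RPM and RPKM used table totals and the coding lengths of RefSeq R64, with which 5687 of 5694 genes were paired by name. Sequences, coordinates and promoters are from the RefSeq R64 genome, the same assembly. Tests used edgeR 4.0.16 in R 4.3.3 on all genes (TMM, default filter by group, quasi-likelihood F test, Benjamini-Hochberg at 0.05), with 4 libraries per comparison and 8 per interaction. SE is the log2 fold change over the root of F. Levels per unique stretch used 28 nt, or 58 nt for disome-seq. Alternatives were DESeq2 1.42.0, its size factors, library totals alone, no filter, a replicate block, leaving out each replicate and HXT6 and HXT7 summed. Python 3.11.15 with numpy 2.4.6, pandas 2.3.3, scipy 1.17.1 and Biopython 1.88 did the rest. On simulated data, log2 changes of 1, 2 and 3 were recovered in 87.3%, 100% and 98.4% of changed genes for mRNA-seq between media in 26.2%, 90.3% and 100% for disome-seq, and in 2.63%, 33.3% and 50.8% for the change of the disome to monosome ratio. The named genes are the 10 genes and those of the lists that passed in mRNA-seq or monosome-seq between media. These genes and lists were chosen with earlier results of these data known. With 2 against 2 samples no permutation test can reach 0.05, and none was run.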

Additional observations from a re-analysis of the deposited data

Results flagged for a closer look

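These results differed between the media by a test of the difference itself (edgeR interaction, adjusted p under 0.05). The ratio of monosome-seq to mRNA-seq changed by -0.43 for HXT3, 0.67 for HXK2 and 0.93 for GLK1 on the log2 scale. The ratio of disome-seq to monosome-seq changed by 1.14 for HXT3, -4.50 for HXK1, -2.29 for HXK2 and -2.65 for GLK1. HXK1 and HXK2 each had only 4 disome footprints in 3-AT over both replicates. The changes of GLK1 in both ratios and of HXK1 in the disome ratio passed under every alternative run, while those of HXT3 and HXK2 each lost the call under some of them, as given above. Strain, medium and 3-AT cannot be told apart in any of them.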

How the results depend on the processing

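Calls and directions of HXT2, HXT5, HXK1, HXK2 and GLK1 in mRNA-seq and monosome-seq between media were the same under all alternatives run, except that HXT5 in monosome-seq fell below the filter without 3-AT replicate 1. Library totals alone turned the value to 0.19, 0.28 and 0.11 for HXT1, HXT3 and HXT4 in mRNA between media, to -0.34 and -0.26 for HXT1 and HXT3 in monosome-seq against mRNA-seq in 3-AT, to -0.080, -0.27 and -0.10 for HXT1, HXT4 and HXK1 in the rich medium (2 genes called, not 6), and to 0.43 and 0.010 for HXT2 and HXT4 in the change of the disome ratio. There HXT2 had 0.061 with DESeq2 and 0.054 with its size factors. DESeq2 called 1558 genes, not 2637, and 1296, not 2414, for monosome-seq against mRNA-seq in the rich medium and in 3-AT, and 415, not 718, for disome-seq against monosome-seq in 3-AT. Without a filter 845 genes, not 500, were called in disome-seq between media. Leaving out 1 replicate gave -0.13 to 0.030 for HXT3 in mRNA between media, -0.27 to 0.17 for HXT2 in the change of the monosome ratio, -0.51 to 0.055 for HXT4 in monosome-seq against mRNA-seq in 3-AT, -7.41 to 1.49 for HXT4 in the rich disome ratio (disome-seq against monosome-seq), and -1.11 to 0.22 and -6.79 to 6.51 for HXT2 and HXT4 in the change of the disome ratio. It gave 1 to 4 of the 10 genes called in disome-seq between media (3 with all libraries), 0 to 4 in the rich disome ratio (4) and 2 to 3 in the change of the disome ratio (4), with 153 to 383 genes (570), 223 to 383 in 3-AT (718) and 276 to 407 (504) over all genes. Where 1 library is left, it is assumed to vary like the other groups. The HXT3 share of the transporters per unique stretch was 63.0% in 3-AT and 51.2% in rich mRNA, 55.8% in rich monosome-seq and 38.2% in rich disome-seq, against 66.1%, 52.1%, 54.0% and 35.4% per coding length. The replicate block changed no call of the 10 genes (5, 6 and 3 called between media in mRNA-seq, monosome-seq and disome-seq). Same-numbered replicates did not deviate together (correlations from -0.03 to 0.04). Counting error weakens such correlations, so they cannot tell whether the numbers pair the samples. The causes were not tested. Counts under about 10 in disome-seq limit HXT1, HXT2, HXT4, HXK1 and HXK2 in 3-AT.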
